A study of Mus musculus with 12 samples.

Results

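The loci of 6 genes that drive cell division or survival were examined for histone acetylation and GLI1 binding in mouse cardiac progenitor cells: the cyclin genes Ccnd1 and Ccnd2, the kinase gene Cdk6, the transcription factor genes Mycn and Myc, and Bcl2. A locus was the gene body with 50 kb on each side in build mm10. The 6 genes stand among 21887 protein-coding genes of the annotation. Their windows held 63 of 76437 H3K27ac intervals of dox cells, 55 of 67463 intervals of control cells, and 2 of 2605 GLI1 sites.

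H3K27ac, a mark of active promoters and enhancers, and tagged GLI1, captured on streptavidin beads, were profiled by chromatin immunoprecipitation and sequencing. Dox cells, of the line GLI1-FTA (strain A2Lox.cre) and grown from embryonic stem cells, received 500 ng/ml doxycycline for 24 hours from day 5, which turns on tagged GLI1. Control cells were of the same line, carried the same transgene, were untreated, and were harvested on the same day 6. GLI1 in dox cells, H3K27ac in dox cells and H3K27ac in control cells were each measured in 2 samples, which the authors pooled into a single list per group. The other 6 of the 12 samples, GLI1 pulldowns of control cells and inputs of both conditions, were not analysed here. The spread between samples is therefore unknown and no difference between dox and control cells was tested. No sample here combined doxycycline with cells that lack the transgene, so the drug and GLI1 cannot be told apart. Of 9 cardiac progenitor marker genes, 6 had an H3K27ac region at the start in both lists, and Nkx2-5, Gata4 and Tbx5 had none there. Hand2, Tnnt2 and Myocd of this list had ratios, as defined below, under −1. Of 4 pluripotency markers 1 had such a region. Of 3 endoderm markers Foxa2 had a region at its start in the dox list alone (34.0), and Sox17 and Foxa1 had none in either list. The neural markers Sox1 and Pax6 had none either. Of 4 endothelial and blood markers Pecam1 had one in both lists, with 11.2 in dox and 11.7 in control cells. Cdh5 (3.13), Kdr (2.82) and Tal1 (4.75) had one in the dox list alone, where the median of all dox-only regions was 3.51. Of 20463 genes, 508 had a start region in the dox list alone and 418 in the control list alone. The part of endoderm, endothelial or blood cells in the results was not tested. At the start of the endogenous Gli1 gene fold enrichment was 35.4 in dox and 9.03 in control cells.

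D-type cyclins, encoded by Ccnd1 and Ccnd2, bind the kinases Cdk4 and Cdk6, which phosphorylate retinoblastoma proteins and so free E2F factors to switch on genes of DNA replication. Mycn and Myc encode basic helix-loop-helix factors that pair with Max on E-box sequences and drive growth and division. Bcl2 encodes a mitochondrial protein that blocks cell death. In cerebellar granule cell precursors and in tumours with an active Hedgehog pathway, Ccnd1, Ccnd2 and Mycn are known responders to Hedgehog signals, and Bcl2 and Cdk6 have been described as GLI targets.

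The RefSeq promoter table (GRCm38.p6) gave a start and strand for Cdk6, Mycn and Bcl2. Ccnd1, Ccnd2 and Myc had no entry. The 250 bases before each of the 3 starts are shown because each start lay under a strong H3K27ac peak in both lists. Capitals mark, on both strands, the GLI consensus GACCACCCA and its core ACCACCC, the E-box CACGTG, the E2F motifs TTTGGCGC and TTTCGCGC, and the GC box GGGCGG. The last 3 motifs were added after the sequences had been read. The sequences run 5′ to 3′ on the strand of the gene.

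Cdk6, chr5:3343643-3343892, plus strand: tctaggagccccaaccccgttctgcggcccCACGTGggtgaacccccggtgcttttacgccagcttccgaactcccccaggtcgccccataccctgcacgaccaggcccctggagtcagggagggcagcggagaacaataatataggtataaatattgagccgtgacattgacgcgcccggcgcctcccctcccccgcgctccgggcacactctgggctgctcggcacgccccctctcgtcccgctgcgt
Mycn, chr12:12941837-12942086, minus strand: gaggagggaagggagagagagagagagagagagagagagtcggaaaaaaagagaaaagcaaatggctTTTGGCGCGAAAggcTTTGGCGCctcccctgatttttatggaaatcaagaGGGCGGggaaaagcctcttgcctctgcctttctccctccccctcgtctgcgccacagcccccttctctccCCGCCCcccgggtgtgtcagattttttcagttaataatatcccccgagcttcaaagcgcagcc
Bcl2, chr1:106714291-106714540, minus strand: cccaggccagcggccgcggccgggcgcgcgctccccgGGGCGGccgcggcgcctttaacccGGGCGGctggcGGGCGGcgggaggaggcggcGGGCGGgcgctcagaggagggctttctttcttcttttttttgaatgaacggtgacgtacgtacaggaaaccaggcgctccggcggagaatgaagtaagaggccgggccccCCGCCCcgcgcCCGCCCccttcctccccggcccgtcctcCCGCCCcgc

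None of the 3 sequences held the GLI consensus or its core, which were found in 0.225% and 3.92% of 32851 promoter windows of the same length. Cdk6 held 1 E-box, present in 6.02% of windows. Mycn held TTTGGCGC in 2 copies and TTTCGCGC in 1, with a shared stretch between a copy of each. At least 1 copy was found in 0.417% and 0.256% of windows, and 2 copies of TTTGGCGC in 0.0061%. Bcl2 held 7 GC boxes and Mycn 2. Of all windows 32.7% held at least 1 GC box, 16.7% held 2 and 0.411% held 7. Bcl2 was the richest in G and C with 74.8%, against 66.0% at Cdk6 and 54.8% at Mycn, and a median of 52.4% over all windows. Letters in these windows are a description and say nothing of binding. The GLI1 site at Cdk6 lay outside the promoter window. Over the genome, 24 GLI1 sites fell wholly in a promoter window, and the exact GLI consensus stood in 3 of them.

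Of the 6 windows, those of Ccnd2 and Cdk6 held a GLI1 site each. In the authors' list a site is a short window around a summit with a −log10 q, which grades its significance. The Ccnd2 site (chromosome 6, 127153296 to 127153396) lay 1158 bp outside the higher-numbered end of the gene and had a −log10 q of 93.0, above 86.1% of all sites. The Cdk6 site (chromosome 5, 3342646 to 3342746) lay 1197 bp upstream of the start given by the promoter table. It was nevertheless inside the annotated gene body, and also inside the long noncoding RNA gene Gm36470. It had 23.7, above 36.1% of sites and below their median of 30.8. Among 19797 genes whose windows could be used, 13.3% had at least 1 site. The windows of the 6 genes were between 105021 and 290005 bp long, and the median over all genes was 117 kb, so a count per window also follows gene length. The nearest site was 71072 bp from Ccnd1, 150609 bp from Mycn, 165554 bp from Bcl2 and 753720 bp from Myc.

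Both sites lay in wide acetylated regions that were present in dox and in control cells. Over the whole list 75.0% of GLI1 sites lay in a dox peak, 25.0% in a control peak and 24.5% in both. At the Cdk6 site the nearest H3K27ac summit was 17 bp away in dox cells, with a fold enrichment of 16.2, and 52 bp away in control cells, with 21.7. At the Ccnd2 site it was 339 bp away in dox cells, with 10.7, and 356 bp away in control cells, with 17.0. Neither site thus stood beside a summit that was higher in dox than in control cells.

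**Figure D1:**
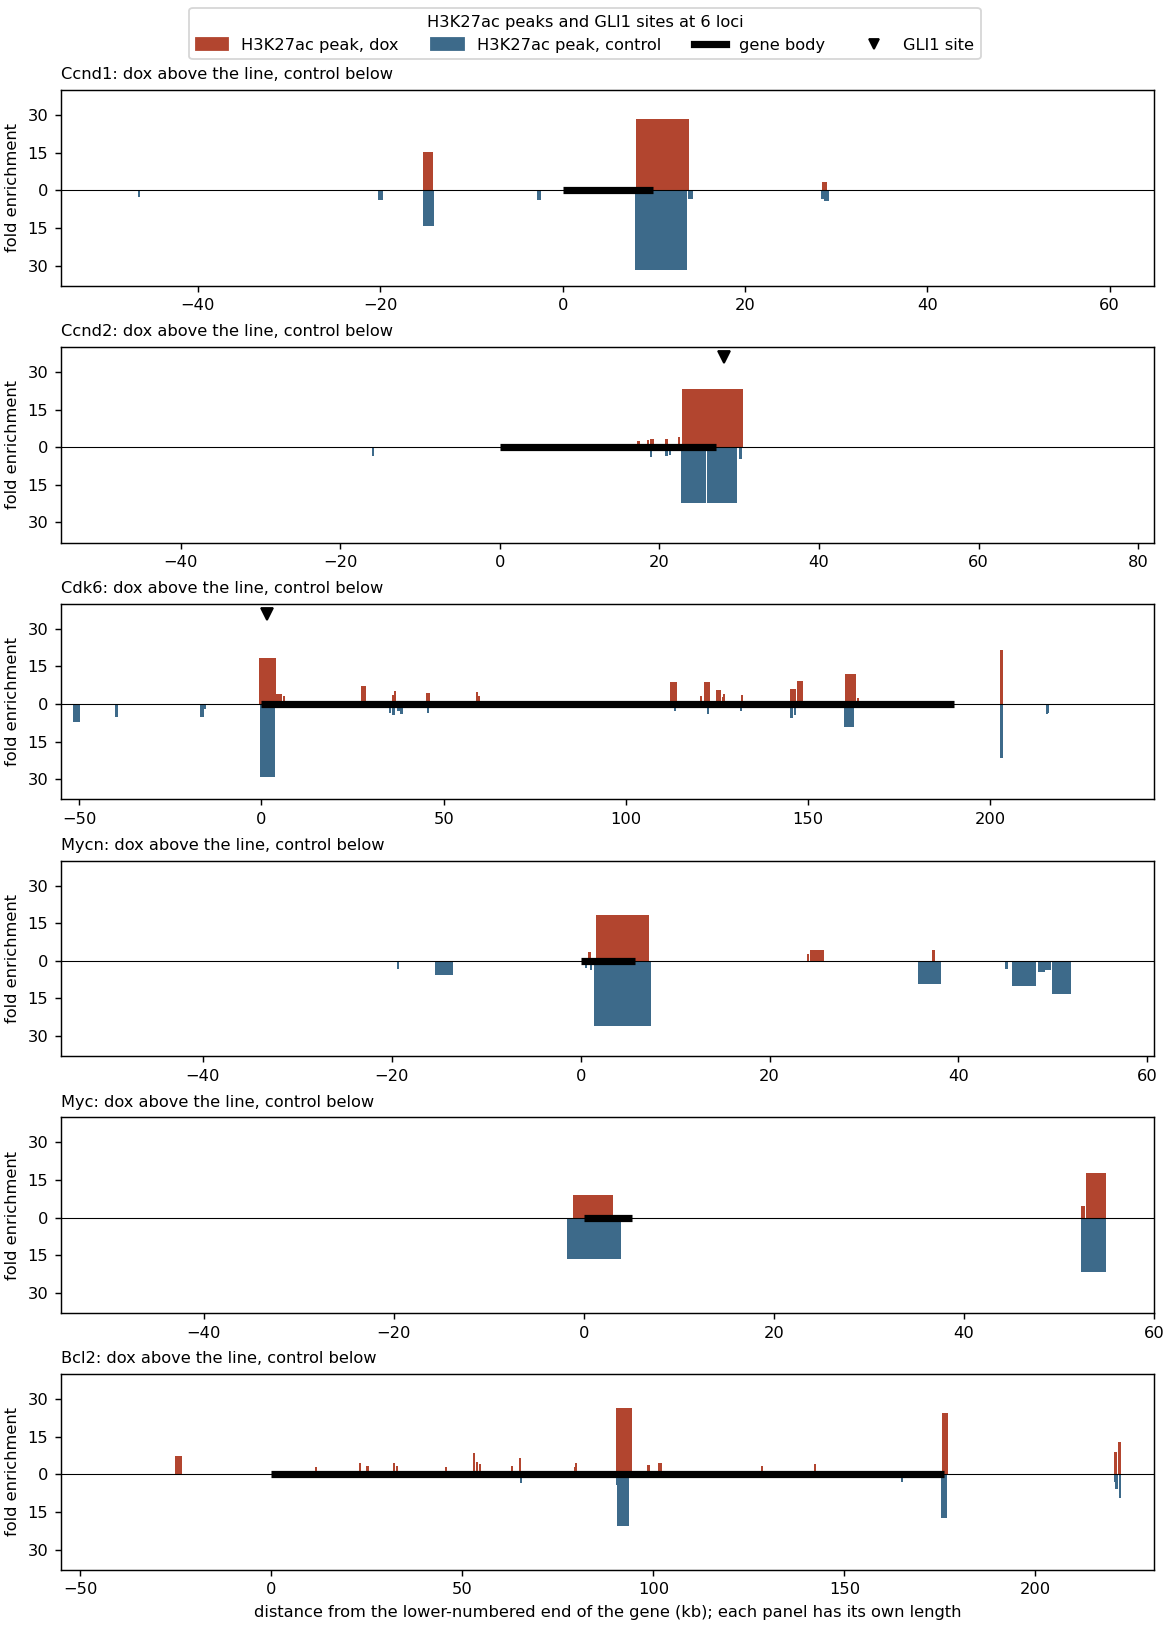
Peaks of H3K27ac at the 6 loci, by distance in kb from the lower-numbered end of each gene. Bar height is the authors' highest fold enrichment in each peak, dox above and control below the line. Thick lines are gene bodies and triangles GLI1 sites. Peaks at the far right of Mycn are in the control list alone, and many small peaks inside Cdk6 and Bcl2 in the dox list alone.

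Fold enrichment is the authors' value for a peak: the height of stacked reads at its summit over the local background. Whether that background came from the input libraries is not given in the sources used here. Overlapping peaks of dox and control cells (1 bp or more in common) were joined into regions, 84 of them at the 6 loci among 94481 in all. A shared region was described by the log2 ratio of its highest fold enrichment in dox over that in control cells. From each ratio the median over shared regions of the whole genome, −0.13, was subtracted. The 2 lists were called separately, so a ratio places a region relative to all other shared regions and is no measure on a common scale. A ratio by reads was taken from the reads recovered at the strongest summit of a region in each list, scaled by depth and centred on its own median. Each 95% counting interval belongs to this ratio by reads and covers counting error only. A region in a single list is one where no peak was called in the other, which does not show that acetylation was absent.

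All 6 gene starts had a region in both lists, and no ratio of fold enrichment there reached 1 in size, while by reads that of Myc was −1.04. Among all genes with a region at the start in both lists, 3.56% had a ratio of at least 1 and 1.93% a ratio of at most −1. Ratios were below 0 at Myc, Cdk6, Mycn and Ccnd1, 4 of the 6 genes, compared with 36.3% of all such genes. At Ccnd1 the sign turned, to 0.10, with width-weighted mean fold enrichments. The median over all such genes was 0.14, and that of the 6 members −0.19.

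**Figure D2:**
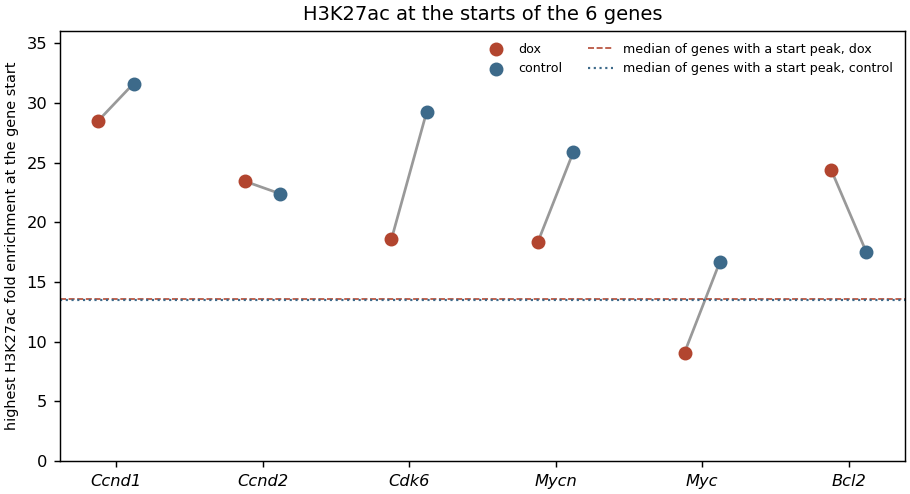
Highest H3K27ac fold enrichment at the start of each gene, dox on the left and control on the right of each pair, with the medians over genes that have a peak at the start as lines. Each point is a pooled list of 2 samples, so there is no error bar. Myc in dox cells, at 9.07, is the only point under these medians.

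Of the D-type cyclin genes, Ccnd1 had nearly equal highest values in both lists, and a lower median over its start summits in dox cells. The region over its higher-numbered end (chromosome 7, 144937927 to 144944192) reached 28.5 in dox and 31.6 in control cells, a ratio of −0.02. Its strongest summit held 131 reads in dox and 151 in control cells. The ratio by reads was −0.30 with an interval of −0.65 to 0.05. Over all summits of the region the median fold enrichment was 7.68 over 13 summits in dox and 17.2 over 10 in control cells. The start peak of control cells was stronger than at 92.1% of genes with such a peak. A region 14112 bp from the gene, over the lower-numbered end of the neighbouring gene LTO1, had 15.3 in dox and 14.2 in control cells. A further 3 regions were in the control list alone and weak, between 2.61 and 3.92, where the median of all control-only regions was 3.66. No dox-only region lay in the window. With windows of 100 kb, Ccnd1 had 5 dox-only and 3 control-only regions, and within the gene body alone it had 0 of each.

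Ccnd2 carried the widest acetylated region of the 6 genes and the stronger GLI1 site, and its fold enrichment was nearly level. The region (chromosome 6, 127147911 to 127155580) spanned 7670 bp and had 23.4 in dox and 22.4 in control cells, a ratio of 0.20 that exceeded 62.8% of all shared regions. Its strongest summit held 129 reads in dox and 102 in control cells, a ratio by reads of 0.25 with an interval of −0.14 to 0.63. In dox cells it was 1 unbroken peak with 13 summits, and in control cells 3 adjacent peaks with 15. Median fold enrichment over the summits was 11.4 in dox and 10.2 in control cells. Peaks at the start covered more bases than at 99.1% of genes with a start peak in dox cells. The other 7 regions of the window were weak: 3 dox-only ones between 2.47 and 4.01, 2 shared and 2 control-only ones.

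At Cdk6 fold enrichment was lower at the start and higher within the gene body in dox cells. The region at the start (chromosome 5, 3340424 to 3344951), which holds the GLI1 site and the E-box sequence printed above, had 18.6 in dox and 29.2 in control cells, a ratio of −0.52. Its strongest summit held 85 reads in dox and 111 in control cells, a ratio by reads of −0.48 with an interval of −0.90 to −0.06. The lower value was shared by the summits of the region, with a median of 14.0 over 9 summits in dox and 20.1 over 7 in control cells.

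Inside Cdk6, 13 regions were in the dox list alone and 4 in the control list alone. Over its whole window 41.9% of regions were dox-only and 29.0% control-only, compared with 35.5% and 27.1% of all regions. The excess of 4 dox-only over control-only regions in this window was reached at 12.9% of gene windows. The strongest dox-only region (chromosome 5, 3487808 to 3489542) had 9.05, above 95.8% of all dox-only regions, and another (chromosome 5, 3368235 to 3369619) had 7.35. Of the 9 shared regions in the window, 2 had a ratio of at least 1, compared with 6.78% of all shared regions. The first (chromosome 5, 3453077 to 3454994) had 8.64 in dox and 2.87 in control cells, a ratio of 1.72. It rested on 39 reads in dox and 10 in control cells, with an interval of 0.84 to 3.04. The second (chromosome 5, 3462326 to 3463953) had 8.64 in dox and 3.92 in control cells, a ratio of 1.27 with an interval of 0.47 to 2.38. The other shared regions inside the gene, away from the start, also had ratios above 0, though all but the strongest had intervals by reads that included 0. The strongest of them rested on 67 reads in dox and 36 in control cells. Its ratio was 0.52 by fold enrichment, and its interval by reads 0.20 to 1.43. None of these regions held a GLI1 site.

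Outside the gene body the balance at Cdk6 was the other way. No dox-only and 5 control-only regions lay there. Shares over all regions were not taken for gene bodies and flanks apart, so this contrast has no comparison. When peaks under a −log10 q of 10 were left out, the window had 5 dox-only regions and 1 control-only region, beside the genome-wide 26.2% and 23.5%. Of these, 3 dox-only and 0 control-only regions were in a single list without that threshold too. A shared region 49900 bp before the gene had 3.24 in dox and 7.05 in control cells, a ratio of −0.99 with an interval of −2.04 to 0.0041. A region over the lower-numbered end of the neighbouring gene Fam133b had 21.5 in dox and 21.7 in control cells.

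Mycn had less acetylated sequence around it in dox than in control cells. Peaks covered 7.35% of its window in dox and 16.3% in control cells. The difference of −8.98 percentage points was lower than at all but 0.237% of gene windows. The region at the start (chromosome 12, 12937470 to 12943524) had 18.4 in dox and 25.8 in control cells, a ratio of −0.36. It rested on 84 reads in dox and 98 in control cells, with an interval of −0.75 to 0.12, which includes 0. The median over its summits was 13.1 in dox and 19.8 in control cells.

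The strongest control-only regions at Mycn lay far upstream of the start, and weaker ones on both sides of the gene. Of 14 regions in the window, 3 were dox-only, 3 shared and 8 control-only. Over all regions 35.5% were dox-only and 27.1% control-only. Mycn and Ccnd1 had more control-only than dox-only regions, compared with 28.3% of genes, though at Ccnd1 the balance turned with windows of 100 kb. Ccnd2, Cdk6 and Bcl2 had more dox-only ones, compared with 39.5%. The strongest control-only region (chromosome 12, 12986047 to 12988013), 44211 bp from the gene and over the lower-numbered end of the long noncoding RNA gene Gm35208, had 13.1, above 99.8% of all control-only regions. Next to it a region of 2605 bp (chromosome 12, 12981749 to 12984353) had 9.92, above 99.1%. A shared region 30005 bp from the gene (chromosome 12, 12971841 to 12974214) had 4.54 in dox and 9.36 in control cells, a ratio of −0.91. Its strongest summit held 20 reads in dox and 43 in control cells, a ratio by reads of −1.20 with an interval of −2.04 to −0.40. On the other side of the gene a control-only region of 1980 bp had 5.78. The 3 dox-only regions, 18223 to 19220 bp upstream, reached 4.54. When peaks under a −log10 q of 10 were left out, 0 dox-only and 4 control-only regions were called at Mycn. Of the 4, 3 were control-only in the full lists. The other was the shared region 30005 bp from the gene, whose dox peak fell under that threshold. At that threshold 26.2% of all regions were dox-only and 23.5% control-only. By its recovered background the dox list was the deeper, at 1.28 times the control list.

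Myc had the lowest ratio at a start. The region (chromosome 15, 61983563 to 61989258) had 9.07 in dox and 16.6 in control cells, a ratio of −0.74, lower than at all but 3.89% of genes with a region at the start in both lists. Its strongest summit held 41 reads in dox and 79 in control cells. By these reads the ratio was −1.04, with an interval of −1.62 to −0.48. Over all summits of the region the median was 5.83 in dox and 10.0 in control cells. Peaks at the start covered 4203 bp in dox and 5696 bp in control cells. The only other region of the window lay 47283 bp away over the lower-numbered end of the long noncoding RNA gene Pvt1. It had 17.9 in dox and 21.6 in control cells, a ratio of −0.14 by fold enrichment. By reads its ratio was −0.52, with an interval of −0.95 to −0.09. Neither list had a region in the window that the other lacked.

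Bcl2 had the largest number of dox-only regions of the 6 loci, and no GLI1 site within its window. Of 23 regions, 17 were dox-only, 5 shared and 1 control-only. The excess of 16 dox-only over control-only regions was reached at 0.697% of gene windows, which are mostly shorter. Peaks covered 6.26% of the window in dox and 2.46% in control cells, a difference that exceeded that of 95.1% of gene windows. All but 1 of the dox-only regions lay inside the gene. They had a median fold enrichment of 4.11, where all dox-only regions had 3.51. The strongest (chromosome 1, 106591071 to 106591476) had 8.64, above 95.3% of dox-only regions, and the one outside the gene, 23291 bp away, had 7.45. When peaks under a −log10 q of 10 were left out, Bcl2 had 3 dox-only regions and 0 in the control list alone, beside the genome-wide 26.2% and 23.5%. Of the 3, 2 were dox-only in the full lists, and the other was a shared region whose control peak fell under that threshold.

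The shared regions of Bcl2 all had ratios above 0, between 0.50 and 1.11. The start (chromosome 1, 106713461 to 106715286), in the sequence with the GC boxes, had 24.4 in dox and 17.5 in control cells, a ratio of 0.61. Its strongest summit held 112 reads in dox and 68 in control cells, a ratio by reads of 0.63 with an interval of 0.18 to 1.08. The median over its summits was 19.4 in dox and 12.1 in control cells. A region of 4133 bp inside the gene (chromosome 1, 106628378 to 106632510) had 26.4 in dox and 20.4 in control cells, a ratio of 0.50 with an interval of 0.11 to 0.94. The only ratio of at least 1 was that of a region with 6.70 in dox and 3.39 in control cells (chromosome 1, 106603100 to 106603603). The remaining 2 shared regions flanked the higher-numbered end of the neighbouring gene Kdsr, and their intervals by reads reached from −0.52 to 0.89 and from −0.10 to 1.06.

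**Figure D3:**
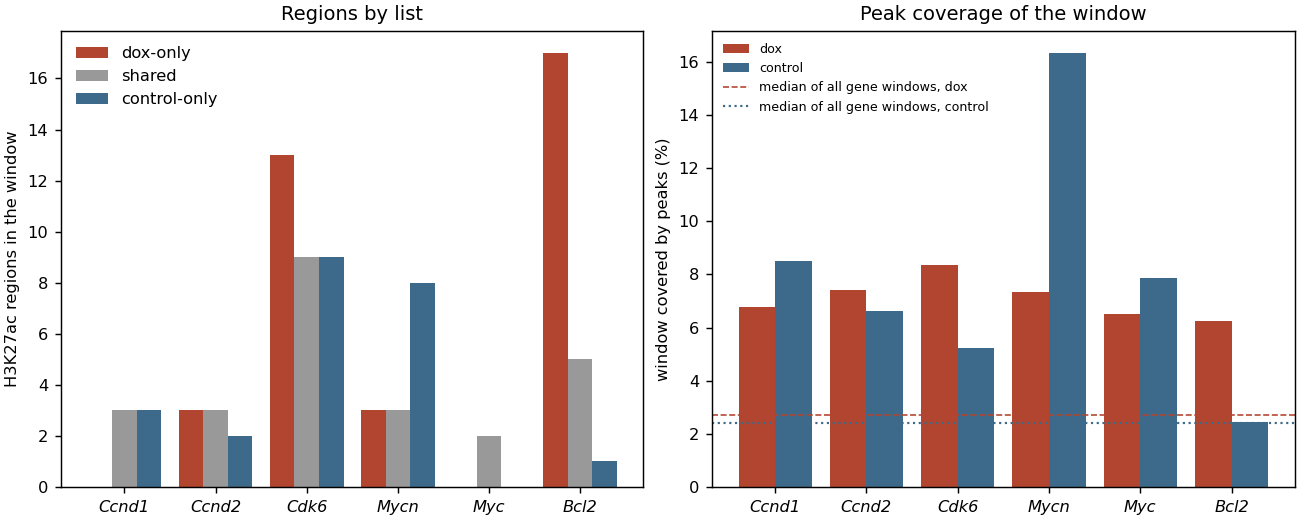
Numbers of dox-only, shared and control-only regions in each window, on the left, and the percentage of each window covered by peaks of dox and control cells, on the right, with medians over all gene windows as lines. Bcl2 has 17 dox-only regions and 1 control-only region, and the window of Mycn is covered to 7.35% in dox and 16.3% in control cells.

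Over the 6 loci, 36 regions (42.9%) were dox-only, 25 (29.8%) shared and 23 (27.4%) control-only. Bcl2 and Cdk6, the longest of the 6 genes, held 17 and 13 of the dox-only regions. Of the 25 shared regions, 3 had a ratio of at least 1 and none a ratio of at most −1, compared with 6.78% and 8.31% of all shared regions. By reads 3 were at least 1 and 2, at Mycn and Myc, at most −1, compared with 6.96% and 8.74%. The median ratio was 0.20. By reads the interval lay above 0 at 6 regions, all at Cdk6 and Bcl2, and below 0 at 4, at Cdk6, Mycn and Myc, compared with 12.0% and 14.4% of all shared regions. At the starts of Ccnd1, Ccnd2, Cdk6, Mycn and Myc peaks covered between 4203 and 7610 bp in dox and between 4218 and 7267 bp in control cells, where the medians over genes with a start peak were 1222 and 1188 bp. In control cells this length was the sum of 2 peaks at Ccnd1 and of 3 at Ccnd2. Bcl2 had 1658 bp in dox and 1544 bp in control cells.

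**Figure D4:**
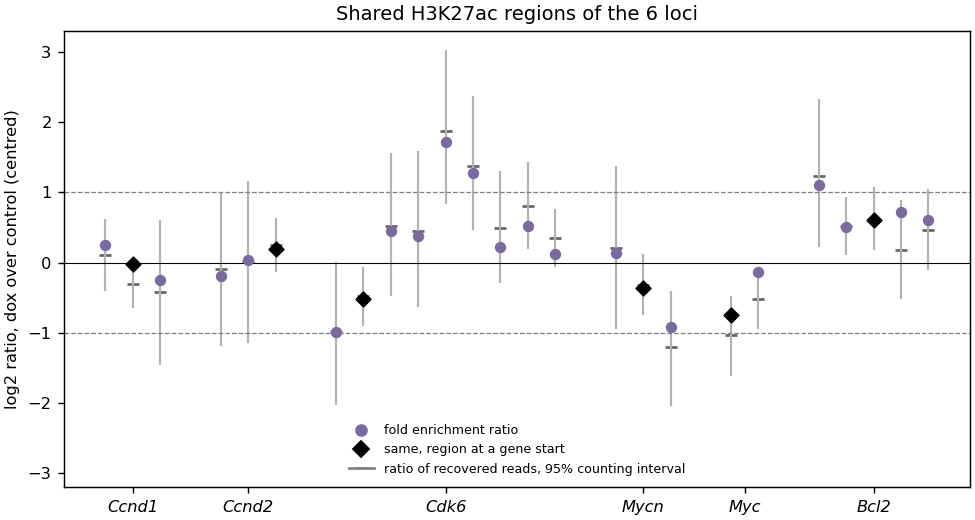
Centred log2 ratio of dox over control for each of the 25 shared regions, in order along the chromosome within a locus. Points and diamonds are ratios of fold enrichment, diamonds at gene starts. Dashes are ratios of recovered reads with 95% counting intervals. Dashed lines mark ratios of 1 and −1, past which lie the ratios of fold enrichment of 2 regions of Cdk6 and 1 of Bcl2. The ratios by reads of 2 further regions, at Mycn and Myc, lie past −1.

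Other genes of the same pathways showed few large ratios at their starts, as did genes at large. Over all genes with a region at the start in both lists the median was 0.14. Of these genes 3.56% had a ratio of at least 1 and 1.93% a ratio of at most −1. All 5 further G1 cyclin and kinase genes had a region in both lists, with a median of 0.21, from −0.54 at Ccne2 to 0.54 at Ccne1, which encode E-type cyclins. The 13 retinoblastoma and E2F genes had a median of −0.03, with E2f4 at 0.75 and E2f7, an E2F repressor, at −0.55. Of 21 genes of S, G2 and M phase, 20 were measured in both lists, with a median of 0.21. The lowest was Cdc6, a factor that loads the replicative helicase, with 5.78 in dox and 12.6 in control cells (−0.99). The phosphatase gene Cdc25b had a region in dox cells alone (4.32), as had 508 of 20463 genes. The 7 genes of CDK inhibitors had a median of 0.32, which was 0.16 with starts widened to 5 kb. Cdkn1b, which encodes p27, had 28.1 in dox and 20.9 in control cells (0.56).

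In the wider Myc network, a list of Max, partners of Max and other linked factors, the 11 genes had a median of 0.18. Mlxip was highest at 0.74 and Mxd3, a Max-binding repressor gene, lowest at −0.69. Of 16 Bcl2 family genes analysed, 10 had a region in both lists and 5 in neither, and their median was −0.02. Bmf, which encodes a protein that promotes cell death, had 33.3 in dox and 12.9 in control cells, and was the only gene of these 6 lists with a ratio of at least 1 in size. Bok had a region in control cells alone (5.74), as had 418 of 20463 genes. Among all 19797 gene windows that could be used, 13.3% held a GLI1 site, a share that also follows gene length. A GLI1 site lay in the windows of 0 of 5 G1 genes, 4 of 13 retinoblastoma and E2F genes (Rb1, Rbl2, E2f2 and E2f8), 2 of 21 S, G2 and M phase genes (Mcm2 and Cdt1), 2 of 7 CDK inhibitor genes (Cdkn2a and Cdkn2b, which are neighbours), 1 of 10 Myc network genes (Mycl) and 6 of 16 Bcl2 family genes (Bcl2l1, Mcl1, Bak1, Bad, Bcl2l11 and Bcl2a1b).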

How the data were processed

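Build mm10 and the tools MACS2 2.1.1, SAMtools 1.5 and Bowtie2 2.3.2 are named, per the submitters' processing notes, with no role given. The deposited lists pool the 2 samples of a group. Each H3K27ac peak carries the authors' fold enrichment (a ratio), −log10 p and −log10 q, and a score that is its −log10 q times 10, rounded down; each GLI1 site carries a deposited −log10 q. Per the file names, GLI1 sites were found in both replicates and hold a Gli motif. Reads per library are unknown.

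Whole-number read heights that return fold enrichment and −log10 p within 0.01 were recovered for 100% of summits. The uniform background was 3.63 reads in dox and 2.83 in control cells. Running peak numbers skip in 694 stretches, none in the 6 windows; 2090 genes whose windows touch them were left out of comparisons with all gene windows, and 1424 whose starts do were left out of those at gene starts. A start was taken from the RefSeq promoter table, or both gene ends where it had none, with 1000 bp on each side. Regions named were those with a GLI1 site, a ratio of at least 1 in size, the strongest of each class or at a start. Genes named in the pathway lists had such a ratio, a region at the start in a single list or a GLI1 site. Other regions and genes were chosen after their values were seen. Members and gene lists were chosen with earlier results of these data known. Python 3.11.15, pandas 2.3.3 and SciPy 1.17.1 were used, and the steps were tested on simulated data.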

Additional observations from a re-analysis of the deposited data

How the results depend on the processing

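When peaks under a −log10 q of 10 were left out, the 6 loci held 8 dox-only, 14 shared and 5 control-only regions. Of these, 5 dox-only and 3 control-only regions were in a single list without that threshold too. The rest of the dox-only and control-only ones had a weaker peak in the other list. Within gene bodies alone there were 7 control-only regions and 1 GLI1 site, and with windows of 100 kb there were 4 sites. The remaining summed counts stayed within 1.5 times of the reported ones in every setting run: an overlap of at least 50% of the shorter interval, a common −log10 p minimum, gene bodies alone, windows of 100 kb and a dox list scaled to the control depth. The last was chosen after seeing the data. Among values for single loci 32 moved and 124 did not. The ratios at the 6 gene starts and the medians of the 6 pathway lists moved by less than the distance from centre to bound of the counting interval (starts) or of the interval or range of the list (medians), though with starts widened to 5 kb the median of the retinoblastoma and E2F list was 0.039 and that of the CDK inhibitors 0.16, and without centring the list medians lay between −0.16 and 0.18. By recovered reads, added after seeing the data, 2 shared regions had a ratio of at most −1, against 0 by fold enrichment. The median ratio of the shared regions lay between 0.07, without centring, and 0.24, with width-weighted means. No paired analysis was possible because each list pools its replicates, and for the same reason no replicate could be left out. Regions in 1 list alone have no value in the other list, and how far the other list fell below its threshold there is unknown.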

Other observations

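Beyond the windows, a GLI1 site 98985 bp from Ccnd2 (chromosome 6, 127251123 to 127251223; −log10 q of 38.3) lay in a shared H3K27ac region (127249052 to 127253060) with a fold enrichment of 29.0 in dox and 7.28 in control cells. Its centred log2 ratio of 2.13 was higher than that of any shared region inside the 6 windows, where the highest was 1.72. Ccnd2 was the nearest protein-coding gene of the annotation to this site. The GLI1 site nearest to Ccnd1, 71072 bp from the gene (−log10 q of 17.0), lay in no H3K27ac peak of either list. Both sites were described after their values had been seen.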
